A study of Danio rerio with 8 samples.

Results

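The DNA replication genes described here are 51 genes of the replication machinery, from origin recognition to the chromatin rebuilt behind the fork, measured in 8 zebrafish embryo RNA libraries. Members were found by gene symbol with case ignored, among rows holding at least 10 counts over the 8 libraries. All 51 symbols matched, MCM6 and rrm2 with 2 rows each, so that 53 rows of 32020 in the count table belong to the group. With all 8 libraries, 51 of those 53 held enough counts to be tested. The role classes were helicase (13 rows), origin licensing (9), polymerase (9), clamp and clamp loader (6), single-strand binding (3), Okazaki fragment processing (3), nucleotide supply (5) and chromatin and methylation after the fork (5). Symbols are written as in the member list, since the name table gives most of them in capitals.

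Treated libraries, numbered 5 to 8, came from embryos given 7,17-diHDPAn-3, a lipid mediator made in cells from an omega-3 docosapentaenoic acid, and control libraries, numbered 1 to 4, from embryos labelled only as control (n = 4 each). The design text names the AB wild-type strain and the lines Tg(gata1: Dsred) and Tg(CD41:GFP), without saying which gave these libraries, and ethanol as the solvent of the compound. It describes a screen at 1.5 µM between 11 and 36 hours post fertilization and a dose search between 1 and 1.75 µM. The exposure of these 8 libraries, the number of embryos behind each and whether control embryos received ethanol are not stated for them. No label ties the libraries to separate clutches or days. The p-values therefore speak of the spread among these 8 libraries alone, and that spread may be technical. Library names carry the word gata_1, and that of control 4 an unexplained 2b.

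Before a cell divides, the origin recognition complex marks start sites on DNA, and cdc6 and cdt1 load the ring of MCM2 to MCM7 proteins there as an inactive helicase. In S phase cdc45 and the GINS complex join the ring and switch it on, primase and the polymerases alpha, delta and epsilon copy the strands, and the sliding clamp pcna holds the polymerases in place. The transcripts of many of these genes are made under E2F transcription factors as cells enter S phase, and in the zebrafish embryo they are abundant in dividing tissues such as the neural tube, the retina and blood progenitors.

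The 8 libraries held 2502636 to 3800120 counts when treated and 3131969 to 4794081 when control, and levels below are CPM, counts scaled to a common library size after TMM, a correction for differing composition. The labels give erythrocyte progenitors and erythrocytes as the cell type. Erythroid transcripts were present, 27 rows of that list summing to between 7080 and 18000 CPM in treated and between 7470 and 17700 CPM in control libraries, but muscle rows summed to between 12200 and 27700 CPM and between 2210 and 19900 CPM, so the libraries held many tissues. In such bulk RNA fewer cells of a type and less RNA per cell cannot be told apart. The 8 most abundant rows, 6 of them without a symbol, took between 30.1% and 33.5% of the counts of a library. CPM of different genes are not compared, because they are not corrected for transcript length.

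Summed over the group, replication transcripts stood at higher levels in treated libraries, by modest amounts. Rows at the highest levels weigh most in this sum, and 12 of the 51 rows tested had lower treated values. The 53 rows together held 2803.2, 2733.1, 3042 and 3192.3 CPM in treated 5 to 8, against 2491.7, 2592.3, 2678.7 and 1968.3 CPM in control 1 to 4. The lowest treated library thus lay just above the highest control, and control 4 lay far below the other 3 controls. The treated mean was 2940 ± 213 CPM and the control mean 2430 ± 319 CPM (SD, n = 4), a ratio of 1.21. Without control 4 the control mean was 2590 CPM.

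None of these differences was called for a single gene. With edgeR's quasi-likelihood test and Benjamini-Hochberg adjustment over all 14249 genes tested, 0 of the 51 rows lay at or under 0.05, and so did 0% of all genes. Counts at an unadjusted p are therefore descriptions. Members were chosen with earlier results of these data known, and many of them varied together across libraries, so the rows are not independent. Log2 fold changes are treated over control, with the standard error after the sign ± where no SD is named. At an unadjusted p of at most 0.05, 10 of 51 rows (19.6%) had higher treated levels, where 3.63% of all genes tested did, and 0 had lower levels, where 3.3% of all genes did. The treated value was higher in 39 rows (76.5%) and lower in 12, against 49.5% of all genes higher. The median log2 fold change, treated over control, was 0.21 over the 51 rows and -0.004 over all genes tested. In 8 rows (15.7%) every treated library lay above every control, against 2.34% of all genes, and in 0 rows below, against 2.29%. DESeq2 on the same counts called 18 genes, none of them a member. That is 0.126% of the 14249 genes, 5526 of which had no adjusted p in DESeq2. Among the members DESeq2 gave MCM6 the smallest adjusted p, 0.0667, with no adjusted p for 11 of them.

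**Figure D1:**
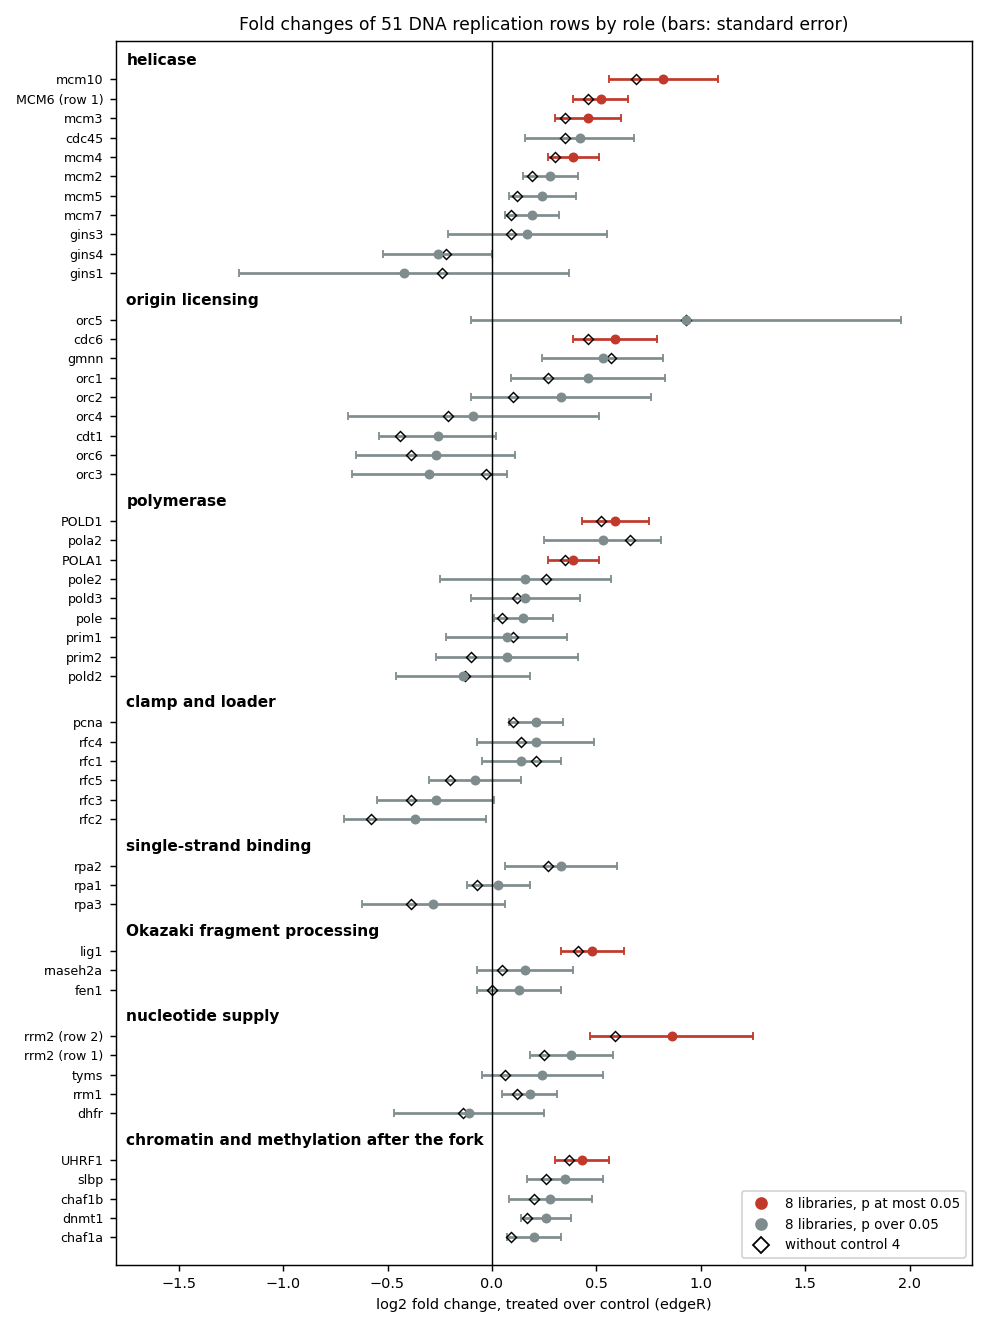
Log2 fold changes (treated over control, edgeR) of the 51 tested replication rows, grouped by role. Filled points are the fit on 8 libraries with bars of 1 standard error, red where the unadjusted p is at most 0.05 (10 rows), and open diamonds are the fit without control 4, which lie lower than the filled points in 42 rows.

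The helicase class, the largest, gave the most rows with an unadjusted p of at most 0.05, 4 of 11 tested (36.4%). Polymerases gave 2 of 9 (22.2%) and Okazaki fragment processing 1 of 3 (33.3%). In the ring of MCM2 to MCM7, all 6 subunits had higher treated means, with a median log2 fold change of 0.33. MCM6, a subunit whose row ENSDARG00000057683 held 3400 counts, stood at 117, 142, 148 and 147 CPM in treated libraries, against 94.1, 103, 107 and 82.2 CPM in controls. The groups did not overlap, and the log2 fold change was 0.52 ± 0.13 (SE, 95% interval 0.26 to 0.79, adjusted p = 0.419), the smallest p of the members. A further row named MCM6, ENSDARG00000033231, held 41 counts in all and was not tested. 

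The subunits mcm3 and mcm4 followed the same order of groups. The levels of mcm3 stood at 89.6, 81.9, 107 and 81.3 CPM in treated and at 63.7, 79.3, 69.4 and 50.1 CPM in control libraries (0.46 ± 0.16, adjusted p = 0.576). mcm4 stood at 124, 129, 136 and 145 CPM in treated and at 107, 111, 109 and 83.8 CPM in control libraries (0.39 ± 0.12, adjusted p = 0.563). For both subunits all treated libraries lay above all controls, although treated 8 exceeded control 2 by only a small margin for mcm3.

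The other subunits of the ring overlapped between groups. mcm2 stood at 138, 110, 140 and 141 CPM in treated and at 112, 117, 120 and 87.5 CPM in control libraries (0.28 ± 0.13, adjusted p = 0.722), where only treated 6 fell among the controls. mcm5 stood at 116, 99.2, 105 and 138 CPM, against 93, 113, 111 and 71.3 CPM (0.24, 95% interval -0.10 to 0.57). mcm7 stood at 219, 171, 205 and 206 CPM, against 181, 208, 177 and 136 CPM (0.19, 95% interval -0.09 to 0.47). Without control 4 the last 2 log2 fold changes were 0.12 and 0.09, and that of mcm2 was 0.19, all smaller than with that library. These 3 subunits are given to complete the ring and were added after their values were seen.

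mcm10, which joins the ring when origins fire, had a log2 fold change of 0.82 ± 0.26. It stood at 15.8, 17.1, 18 and 14.4 CPM in treated and at 7.75, 12.1, 10.6 and 6.69 CPM in control libraries, with no overlap (95% interval 0.27 to 1.37, adjusted p = 0.563). cdc45 averaged 18.7 ± 4.40 CPM in treated and 14.0 ± 4.14 CPM in control libraries (SD, n = 4, adjusted p = 0.806). Of the GINS subunits, gins3 had a log2 fold change of 0.17 ± 0.38, gins4 of -0.26 ± 0.26 and gins1 of -0.42 ± 0.79. gins2, with 72 counts in all, was not tested with all 8 libraries and was at -0.69 ± 1.13 without control 4. gins1 held 82 counts in all and 0 in treated 5, which allows up to 1.28 CPM there by counting error alone. Its 95% interval of -2.10 to 1.26 holds the log2 fold change of every ring subunit. That of gins4, -0.82 to 0.29, does not reach the log2 fold changes of MCM6, mcm3 and mcm4. It does overlap the interval of MCM6, 0.26 to 0.79, and differences between these genes were not tested.

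**Figure D2:**
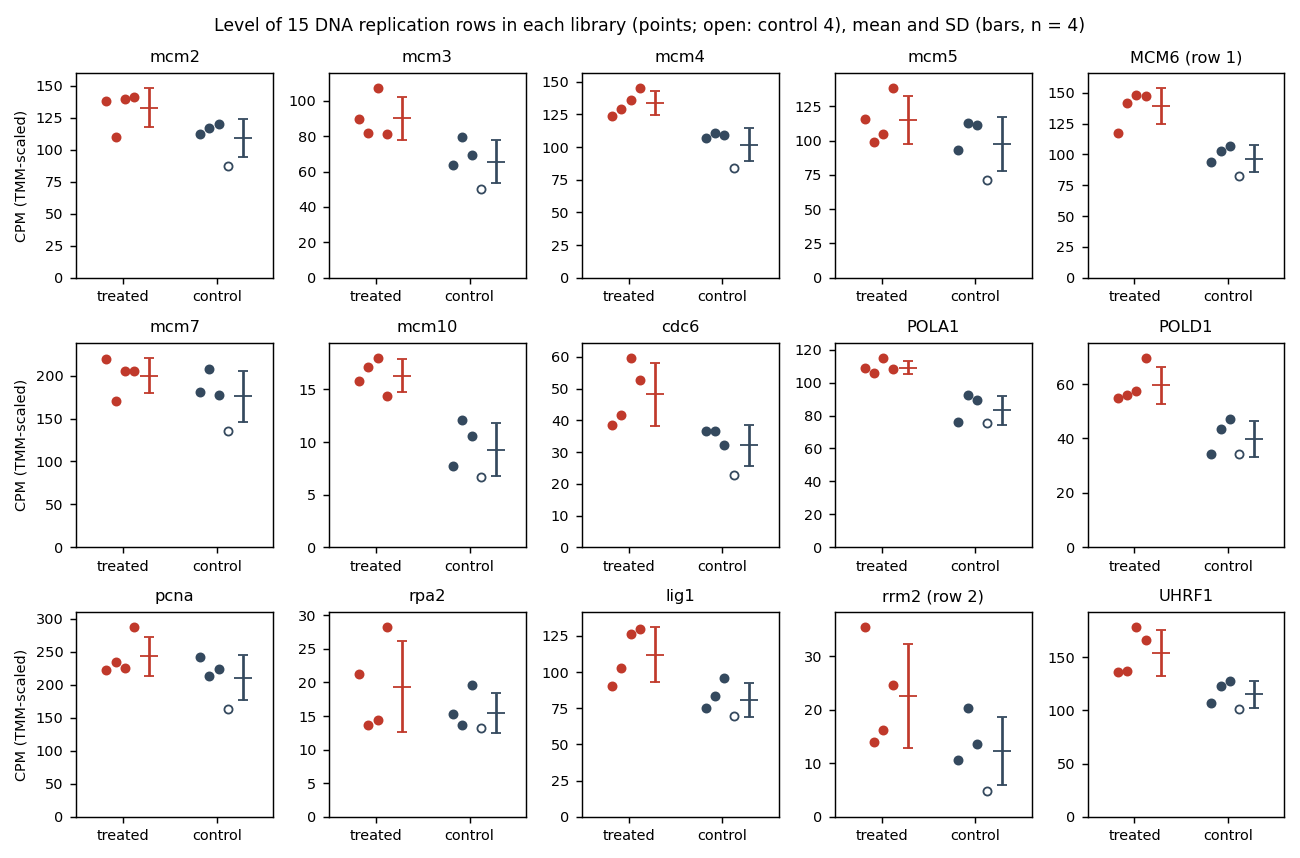
Level in CPM of 15 replication rows in each library, treated on the left and control on the right of each panel, with the mean and SD (n = 4) beside the points. Control 4, drawn open, is the lowest or shares the lowest level of the controls in every panel, and the treated points of MCM6, mcm3, mcm4, mcm10, cdc6, POLA1, POLD1 and UHRF1 all lie above the control points.

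Among the genes of origin licensing, cdc6 alone had a p of at most 0.05. This loader of the helicase stood at 38.4, 41.7, 59.7 and 52.8 CPM in treated and at 36.5, 36.7, 32.2 and 22.9 CPM in control libraries (0.59 ± 0.20, adjusted p = 0.567). The groups did not overlap, but treated 5 lay close to controls 1 and 2. Its partner cdt1 had the opposite sign, at 14.8 ± 3.15 CPM in treated and 17.6 ± 6.62 CPM in control libraries (SD, n = 4, -0.26 ± 0.28 SE, adjusted p = 0.89), and -0.44 without control 4. gmnn, the inhibitor of cdt1 in S phase and G2, averaged 12 ± 4.35 CPM in treated and 8.34 ± 0.814 CPM in control libraries (SD, n = 4, adjusted p = 0.773).

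The 6 subunits of the origin recognition complex divided evenly, 3 with higher and 3 with lower treated means and adjusted p from 0.85 to 0.984. Few reads lay behind them, at means over all libraries of between 2.16 and 11.3 CPM. orc1, the subunit that rises and falls with the cell cycle in mammals, stood at 9.81, 6.74, 21.3 and 14.4 CPM in treated and 9.22, 14.9, 8.39 and 5.54 CPM in control libraries (0.46 ± 0.37). orc5 had 59 counts in all, and orc4 had 0 counts in treated 5. Over the 9 licensing rows the median log2 fold change was 0.33, and 0.10 without control 4. With limma-voom in place of edgeR it was 0.004.

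Of the polymerases, the catalytic subunits of alpha and delta had an unadjusted p of at most 0.05. POLA1, which extends the primers made by primase, stood at 109, 106, 115 and 108 CPM in treated and at 76.1, 92.4, 89.3 and 75.5 CPM in control libraries (0.39 ± 0.12, adjusted p = 0.562). POLD1, the catalytic subunit of the polymerase that copies the lagging strand, stood at 55, 56, 57.6 and 69.6 CPM, against 34.2, 43.6, 47.1 and 34.2 CPM (0.59 ± 0.16, adjusted p = 0.543). Neither gene showed any overlap of the groups, and the treated values of POLA1 lay close together (SD 3.83 CPM, against 8.80 CPM in controls, n = 4 each).

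pole, the catalytic subunit of the leading strand polymerase, differed less: it averaged 105 ± 7.95 CPM in treated and 94.5 ± 14.9 CPM in control libraries (SD, n = 4, 0.15 ± 0.14 SE, adjusted p = 0.862), and its log2 fold change was 0.05 without control 4. The difference between pole and POLD1 was not itself tested. The accessory subunits ran from -0.14 ± 0.32 for pold2 to 0.53 ± 0.28 for pola2 (adjusted p = 0.764), with pold3 and pole2 at 0.16 each. The primase subunits prim1 and prim2 were at 0.07 each, with standard errors of 0.29 and 0.34, and prim2 was at -0.10 without control 4. In all, 8 of the 9 polymerase rows had higher treated means.

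The clamp and its loader showed no common direction. pcna, the sliding clamp and a usual marker of dividing cells, stood at 223, 235, 226 and 287 CPM in treated and at 242, 214, 224 and 163 CPM in control libraries. The groups overlapped, treated 8 being highest and control 4 lowest, and the log2 fold change was 0.21 (95% interval -0.07 to 0.49, adjusted p = 0.809), or 0.10 without control 4. Of the replication factor C subunits, which open the clamp and place it on DNA, rfc1 and rfc4 had log2 fold changes of 0.14 and 0.21 and rfc2, rfc3 and rfc5 of -0.37, -0.27 and -0.08, with adjusted p from 0.866 to 0.964. The median of the 6 rows was 0.03, and -0.05 without control 4.

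Replication protein A, which coats single-stranded DNA, gave a median of 0.03. Its large subunit rpa1 averaged 76.9 ± 8.54 CPM in treated and 75.6 ± 12.7 CPM in control libraries (SD, n = 4, 0.03 ± 0.15 SE), and was at -0.07 without control 4. rpa2 stood at 21.3, 13.7, 14.4 and 28.2 CPM in treated and 15.3, 13.6, 19.7 and 13.2 CPM in control libraries (0.33 ± 0.27, adjusted p = 0.85). Only treated 5 and 8 lay above all the controls for rpa2, and leaving out treated 8 gave a log2 fold change of 0.08. rpa3, the small subunit, was at -0.28 ± 0.34.

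Among the genes that finish Okazaki fragments, lig1 had the one unadjusted p of at most 0.05. This ligase, which seals the nicks between fragments, stood at 90.4, 103, 126 and 130 CPM in treated and at 74.8, 83.1, 96.1 and 69.3 CPM in control libraries (0.48 ± 0.15, adjusted p = 0.563). Treated 5 lay below control 3, so the groups overlapped in that pair. fen1, the flap nuclease, averaged 33 ± 1.83 CPM in treated and 30.2 ± 6.88 CPM in control libraries (SD, n = 4, 0.13 ± 0.20 SE) and had a log2 fold change of 0 without control 4. rnaseh2a, the catalytic subunit of the ribonuclease that removes ribonucleotides from DNA, was at 0.16 ± 0.23.

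Nucleotide supply rested on ribonucleotide reductase, thymidylate synthase and dihydrofolate reductase. rrm1, the large reductase subunit, stood at 220, 231, 228 and 311 CPM in treated and at 248, 195, 241 and 190 CPM in control libraries (0.18 ± 0.13, adjusted p = 0.841). The small subunit rrm2 has 2 rows, between which reads of near-identical copies may have been divided. Its larger row, ENSDARG00000078069, stood at 198, 169, 247 and 205 CPM in treated and 120, 177, 222 and 113 CPM in control libraries (0.38 ± 0.20, adjusted p = 0.768), so that controls 2 and 3 lay among the treated libraries and controls 1 and 4 below.

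The smaller rrm2 row, ENSDARG00000020711, stood at 35.4, 14, 16.2 and 24.7 CPM in treated and 10.7, 20.3, 13.6 and 4.85 CPM in control libraries (0.86 ± 0.39, 95% interval 0.01 to 1.71, adjusted p = 0.717). The highest value, in treated 5, and the lowest, in control 4, lay furthest from the rest. The log2 fold change was 0.58 without treated 5 and 0.59 without control 4, and its unadjusted p was at most 0.05 in 3 of the 8 fits that each left out 1 library. tyms, the target of fluorouracil in human cells, was at 0.24 ± 0.29, or 0.06 without control 4, and dhfr, which recycles the folate that tyms uses, at -0.11 ± 0.36.

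Genes that rebuild chromatin behind the fork all had higher treated means, with a median log2 fold change of 0.28 over 5 rows. UHRF1, which reads hemimethylated DNA and brings the methyltransferase dnmt1 to it, stood at 136, 137, 178 and 166 CPM in treated and at 107, 123, 128 and 101 CPM in control libraries (0.43 ± 0.13, adjusted p = 0.562). All treated libraries lay above all controls for UHRF1. dnmt1 averaged 127 ± 7.24 CPM in treated and 106 ± 14.1 CPM in control libraries (SD, n = 4, 0.26 ± 0.12 SE, adjusted p = 0.727). The subunits chaf1a and chaf1b, which place histones on new DNA, had log2 fold changes of 0.20 and 0.28. The log2 fold change of slbp, which binds the stem-loop of replication histone transcripts, was 0.35 ± 0.18 (adjusted p = 0.747).

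Members were also read by the number of reads behind them. Of the 26 rows with a mean of at least 17.4 CPM over all libraries, the median of the members, 25 had higher treated means, against 48.6% of all genes at that level, and 9 had a p of at most 0.05, against 4.49%. Of the 25 rows under that level 14 had higher treated means, against 50.1% of all genes under it, and 1 had a p of at most 0.05, against 2.91%. The division at the median was made after the levels were seen.

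**Figure D3:**
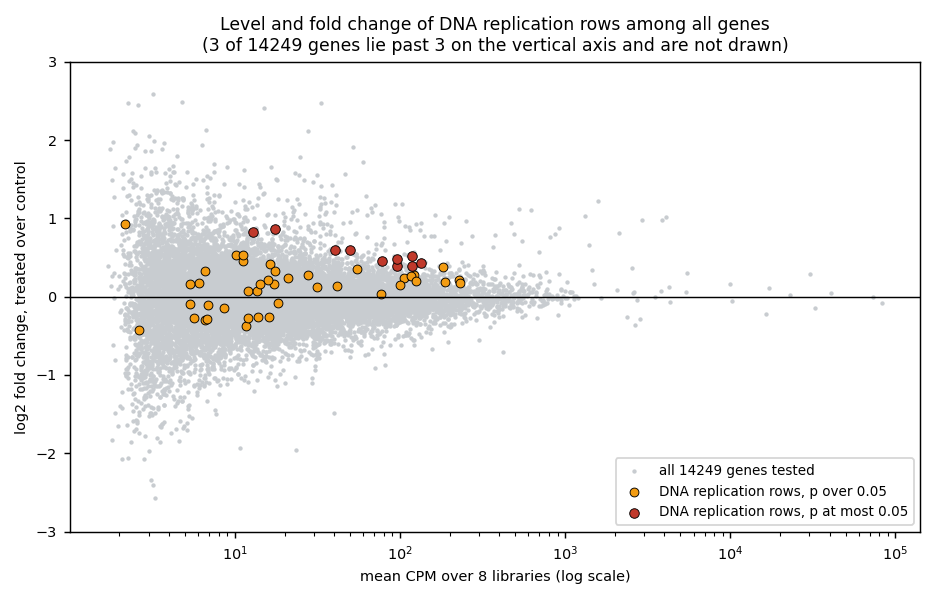
Log2 fold change, treated over control, against mean CPM (log scale) for all 14249 genes tested (grey) and for the 51 replication rows, red where the unadjusted p is at most 0.05. Most replication rows at higher levels lie a little above 0, while those at low levels lie on either side of it; 3 genes lie past the axis limit of 3.

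Libraries of 1 group differed among themselves as well. Measured as log2 CPM minus the mean of each row over the 8 libraries, the median over 51 rows was 0.04, 0.09, 0.14 and 0.24 in treated 5 to 8, and -0.08, -0.01, 0.01 and -0.42 in control 1 to 4. Control 4 was the lowest control in 35 of the 51 rows, and it was the lowest in 24.6% of all genes tested. Of the 26 rows at or over the median CPM it was the lowest control in 23. Among treated libraries, treated 8 was the highest in 19 rows and treated 7 in 17, against 25.7% and 24.4% of all genes, and treated 5 the lowest in 22, against 26.8%.

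**Figure D4:**
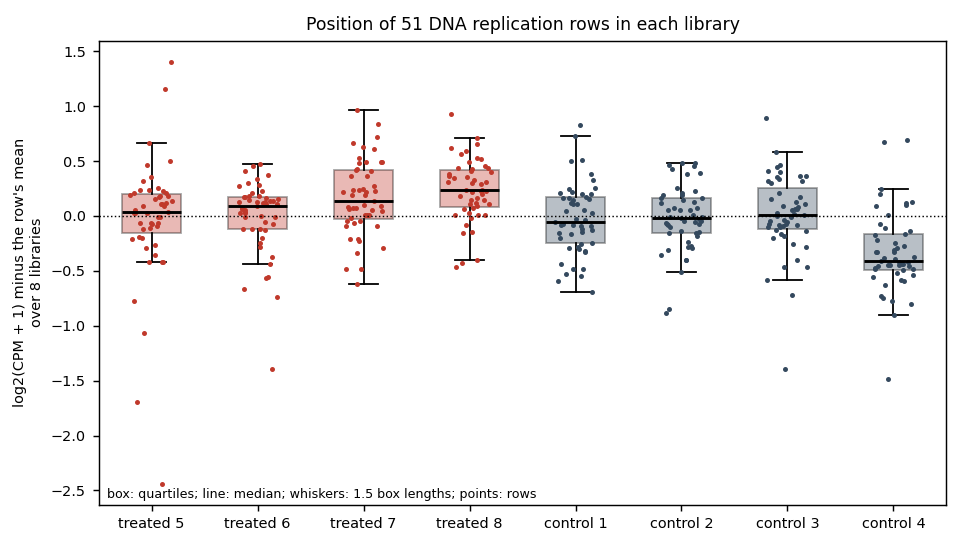
Each point is 1 of the 51 tested replication rows, as log2(CPM + 1) minus the mean of that row over the 8 libraries, with the quartiles and median of each library. The median lies at 0.04 to 0.23 in the treated libraries, at -0.06 to 0.01 in controls 1 to 3 and at -0.41 in control 4.

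The differences were smaller without control 4. The median log2 fold change of the members was 0.12, and 42 of the 51 rows had a lower log2 fold change than with all 8 libraries. A p of at most 0.05 with higher treated levels was found in 9 rows, each of them among the 10 above (3.75% of all genes), and in 0 with lower levels (2.61%). The row lost was the smaller rrm2 row. 0 members and 0% of all genes had an adjusted p of at most 0.05. Treated means were higher in 36 of the 51 rows, against 49.6% of all genes. gins2, not tested with all 8 libraries, is left out of these counts and had a lower treated value in this fit (-0.69 ± 1.13). Against the 3 other controls, gmnn, pola2 and dnmt1 also had no overlap, which made 11 rows higher against 4.41% of all genes, and 0 lower against 3.53%. Fewer controls make such a count easier to reach, and the levels were also scaled anew without control 4. For dnmt1 the lack of overlap came from that scaling. With all 8 libraries, its treated 5 lay at 118 CPM, under control 1 at 120 CPM. MCM6 had a log2 fold change of 0.46 ± 0.13 (adjusted p = 0.523), POLD1 of 0.52 ± 0.18 (adjusted p = 0.656) and UHRF1 of 0.37 ± 0.14 (adjusted p = 0.706). Over the 8 fits that each left out 1 library, 9 members (MCM6, mcm3, mcm4, mcm10, cdc6, POLA1, POLD1, lig1 and UHRF1) had an unadjusted p of at most 0.05 every time. These fits share most libraries with the full fit in which the same members had a small p, so they are no separate support. The share of all genes that did so every time was not counted. With controls 1 and 4 both left out, a fit on 2 controls chosen after seeing the data, 2 members had one (3.92%). That was close to the 3.57% of all genes, so the larger share of members at this threshold was not seen in that fit. Treated means were still higher in 37 of the 51 rows there. The median log2 fold change was 0.139 over the members and 0.005 over all genes.

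Summed by role, the helicase, polymerase and chromatin classes kept the groups apart and the others did not. These sums hold the rows already given as without overlap, MCM6, mcm3, mcm4, mcm10, POLA1, POLD1 and UHRF1. They are therefore not a separate result, and sums without those rows were not made. Helicase rows summed to 863, 798.2, 893.7 and 918.7 CPM in treated and 703.9, 778.3, 752.2 and 559.6 CPM in control libraries. Polymerase rows summed to between 327.5 and 363.4 CPM in treated and between 244.2 and 310 CPM in control libraries, and chromatin rows to between 467.6 and 536.3 CPM and between 336.8 and 439.6 CPM. Nucleotide supply summed to 490.6, 442, 518.9 and 565.9 CPM, against 411.6, 415.2, 507 and 325.7 CPM, and clamp and loader rows to between 314 and 386.5 CPM, against between 249.8 and 340.9 CPM, both with overlap. Control 4 was the lowest library of all 8 in each of the 8 role sums.

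Other genes of S phase, which are not members, were read from lists. Over all genes tested, 3.63% had an unadjusted p of at most 0.05 with higher and 3.3% with lower treated levels. Without control 4 these shares were 3.75% and 2.61%. The counts of these lists and of the marker lists below are to be read beside them. Of 29 tested fork and origin proteins outside the group, 24 had higher treated means (median 0.20) and 0 had a p of at most 0.05 in either direction, the smallest being that of MCMBP, which binds MCM proteins (0.41 ± 0.20, adjusted p = 0.722). Of 19 further genes of nucleotide supply 13 were higher and 1 of them had a p of at most 0.05, the larger row of CTPS1, which makes CTP (0.39 ± 0.17, adjusted p = 0.675), and 0 without control 4. Of 15 further chromatin genes of S phase 14 were higher, and 5 of them had a p of at most 0.05 with all libraries and 1 without control 4. That gene was HELLS, a remodelling factor needed for DNA methylation, at 49.1, 38.6, 52.2 and 36.3 CPM in treated and 31.2, 34.6, 21.3 and 30 CPM in control libraries (0.58 ± 0.20, adjusted p = 0.565).

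Repair genes of S phase had higher treated means in 14 of 16 rows (median 0.28), and 3 had a p of at most 0.05 both with and without control 4. USP1, which removes ubiquitin from pcna, averaged 56.3 ± 4.87 CPM in treated and 39.8 ± 7.05 CPM in control libraries (SD, n = 4, adjusted p = 0.563). brca2, a tumour suppressor gene of DNA repair, averaged 42.7 ± 12.1 CPM in treated and 26.9 ± 2.93 CPM in control libraries (adjusted p = 0.563). The checkpoint kinase ATR averaged 14.7 ± 3.65 CPM in treated and 9.05 ± 2.86 CPM in control libraries (adjusted p = 0.656). The groups overlapped for all 3 of these repair genes. Of 30 regulators of S phase 19 were higher (median 0.13), and 1 higher and 2 lower had an unadjusted p of at most 0.05, against 0 higher and 1 lower, a row of CDKN1B, without control 4. DTL, which directs the breakdown of cdt1, had a log2 fold change of 0.57 ± 0.23 (adjusted p = 0.637), and RBL2, a pocket protein that holds E2F targets down, of -0.57 ± 0.26 (adjusted p = 0.717). The groups overlapped for RBL2, and the other pocket protein genes RBL1 and RB1 were at 0.35 ± 0.21 and 0.21 ± 0.18. That row of CDKN1B, an inhibitor of cyclin-dependent kinases, stood at 55, 37.6, 56.1 and 44.2 CPM in treated and 66, 62.4, 67.1 and 63.7 CPM in control libraries, without overlap (-0.43 ± 0.16, adjusted p = 0.597), while its other row was at -0.30 ± 0.29. The adjusted p of all genes named from these lists lay over 0.05.

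Mitosis genes divided more evenly in direction. Of 28 rows 17 had higher and 11 lower treated means, the median log2 fold change was 0.02, and 0 had a p of at most 0.05. The smallest p was that of BIRC5, with a lower treated mean (-0.74 ± 0.39, adjusted p = 0.756). mki67, a marker of dividing cells, averaged 744 ± 36.6 CPM in treated and 660 ± 102 CPM in control libraries (SD, n = 4, adjusted p = 0.806). Its log2 fold change was 0.17, or 0.09 without control 4. The sum of the mitosis rows was lowest in control 4, at 2160 CPM, and highest in control 3, at 3380 CPM, with the treated libraries between 2490 and 3020 CPM. A difference between replication and mitosis genes was not tested.

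Markers of other tissues moved with the libraries too, and their part in the differences above was not tested. Of 22 tested neural progenitor rows 17 had higher treated means, 4 with an unadjusted p of at most 0.05. Those 4 were nes, both NOTCH1 rows and NOTCH3, and the Notch rows held the highest levels of the list. Their treated means were 701, 856 and 1010 CPM, against 577, 688 and 827 CPM in control libraries. The other tested rows had log2 fold changes from -0.14, for a row of PAX6, to 0.44, for ascl1b. SOX2 was at -0.03 and SOX3 at 0. The list summed to 3770, 3400, 4120 and 3670 CPM in treated and 3470, 3090, 3140 and 2890 CPM in control libraries, control 4 being lowest as it was for the replication genes. Of 19 neuron rows 16 had lower treated means, 4 with such a p, and that list summed to 1980, 2210, 2170 and 1860 CPM in treated and 2170, 2320, 2120 and 2420 CPM in control libraries, with control 4 highest. None of the rows of these 2 lists was at 0 in all libraries. Muscle rows were higher in all 26 tested, 4 with such a p, with sums of 18000, 21100, 12200 and 27700 CPM in treated and 2210, 11500, 8540 and 19900 CPM in control libraries. Erythroid rows were lower in 22 of 23, 0 with such a p, with sums of 18000, 9820, 7330 and 7080 CPM in treated and 16800, 9440, 17700 and 7470 CPM in control libraries, and 3 rows named HBE1 were at 0 in all libraries. The erythroid sum of treated 7 and 8 was thus low where replication rows were highest, and in control 4 both were low. Control 3 had the highest sum of the controls in both lists. Treated 5 had the highest erythroid sum of all libraries, with a replication sum above every control.

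The remaining marker lists gave the following values. Endothelium rows were higher in 13 of 15, 9 of them with an unadjusted p of at most 0.05 and 7 without control 4, a larger share than among the replication rows, and summed to between 239 and 344 CPM in treated and between 182 and 227 CPM in control libraries, without overlap. Retina and lens rows were higher in 11 of 18, 5 with such a p, at 270 to 353 CPM in treated and 212 to 303 CPM in control libraries, with lim2.1 at 0 in all libraries. All 5 were lens genes, while the log2 fold changes of tested retina rows lay on both sides of 0, from -0.39 to 0.81. Epidermis rows were higher in 7 of 14, and 2 had such a p with lower values, at 8210 to 10600 CPM in treated and 6370 to 12500 CPM in control libraries, with krt93 at 0. Myeloid rows were higher in 3 of 9, 0 with such a p in either direction, at 122 to 236 CPM in treated and 167 to 228 CPM in control libraries, with 4 rows named MFAP4 at 0. Only the endothelium list kept the groups apart among these 4.

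**Figure D5:**
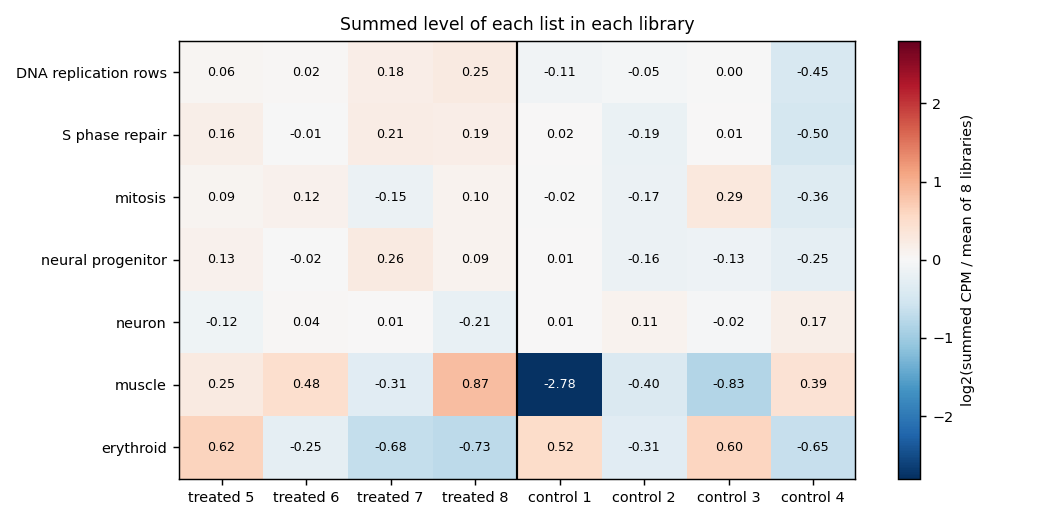
Summed CPM of the 53 replication rows and of 6 other gene lists in each library, as log2 of the ratio to the mean of the 8 libraries, with treated libraries left of the line. Replication rows lie at 0.02 to 0.25 in treated libraries and at -0.45 in control 4, where repair, mitosis and neural progenitor rows are also at their lowest and neuron rows at their highest.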

How the data were processed

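The values deposited by the authors are unnormalized counts, whole numbers for each Ensembl gene in 8 libraries. Per the labels' protocols, total RNA of embryos went into a strand-marking kit for picogram inputs, ribosomal sequences were removed with probes made for mammals, and paired ends were read. The submitters' processing notes name the build GRCz11 and, without role or order, HISAT2 2.1.0, StringTie 1.3.3b, Trim Galore 0.5.0, DESeq2 1.22.1 and CASAVA 1.8.2. The annotation release and the strand setting of the counting were not given in the sources used here, so values of genes that overlap, lie antisense or have a close copy are uncertain. 28975 of 32020 rows matched a symbol, and 0 sample columns were left out.

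Counts were filtered with filterByExpr and scaled by TMM in edgeR 4.0.16 (R 4.3.3). Its quasi-likelihood test, fitted robustly to treated against control without covariates, covered 14249 genes, with Benjamini-Hochberg adjustment over all of them. Standard errors follow from the F statistic, and 95% intervals use its degrees of freedom. Centred log2 CPM values used a prior count of 2. A limit for 0 counts is 3 counts of the library. Limits and intervals cover no PCR error. Pairs of libraries differed by a chi-square over degrees of freedom of 6.85 to 23.6, so none agreed within sampling noise.

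Members, roles and lists were chosen with earlier results of these data known. List entries with a closing a or b and no match were matched without that letter, and 2 entries whose symbol named an unrelated gene were removed after their values were seen. Values in every library are given for members with an unadjusted p of at most 0.05 or no overlap between groups, for pcna, and for the member of smallest p in any other class, with a few further members named after their values were seen. Of the other lists, up to 4 genes of smallest p are named. In the mitosis list mki67 is named, while ndc80, of smaller p, is not. Named outside that rule are RBL1, RB1, the other row of CDKN1B, PAX6, ascl1b, SOX2, SOX3 and rows at 0 in all libraries. Alternatives were DESeq2 1.42.0 and limma 3.58.1 (voom), other scalings, filters and dispersions, removal of globin or muscle rows, and each library left out. The scripts were tested on simulated data. Sequences of the members, their promoters and their proteins were not analysed here. Figures used matplotlib 3.10.9.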

Additional observations from a re-analysis of the deposited data

Results flagged for a closer look

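2 levels lay further from the other 3 libraries of their group than Dixon's test allows at its 95% limit, among 32 groups of 4 values examined, where about 1 in 20 is flagged by chance. mcm2 stood at 110 CPM in treated 6, against 138 to 141 CPM in the other treated libraries. mcm4 stood at 83.8 CPM in control 4, against 107 to 111 CPM in the other controls. The groups examined do not cover all members, and rrm1 and pole were not among them. rrm1 stood at 311 CPM in treated 8, against 220 to 231 CPM in the other treated libraries. pole stood at 72.3 CPM in control 4, against 100 to 104 CPM in the other controls. Without control 4 the log2 fold change of mcm4 was 0.30 ± 0.12 (SE, edgeR, adjusted p = 0.74), and without treated 6 that of mcm2 was 0.36.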

How the results depend on the processing

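No member passed an adjusted p of 0.05 under any alternative run. The count of members with an unadjusted p of at most 0.05 and higher treated levels was 9 to 12 with each library left out (17.6% to 23.5%, against 2.7% to 3.75% of all genes), 10 to 12 under the other planned settings, and 2 (3.92%, against 3.57% of all genes) with controls 1 and 4 both left out, a fit of 2 controls added after seeing the data. The cause was not tested. The genes called over the whole table, 0 in the report, were 4 with no low-count filter, 2 with a mean of at least 5 CPM, 18 in DESeq2, and 0 to 1 with each library left out. The median log2 fold change of the members ran from 0.123 without control 4 to 0.272 without control 3. That of origin licensing was 0.004 with limma-voom and 0.067 with controls 1 and 4 left out, against 0.334, and that of polymerases 0.268 with limma-voom and 0.12 to 0.345 with each library left out, against 0.156. The medians of the clamp and loader and the single-strand binding classes were -0.050 and -0.066 without control 4. None of the 15 members given in every library by rule or to complete the ring changed sign under these alternatives; prim2 and rpa1 did without control 4, where fen1 was at 0. No paired analysis was possible because the groups share no replicate number. Depth limits the rows under about 17.4 CPM most, where standard errors are larger.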
